A study of Mus musculus with 11 samples.

Results

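The transcripts of mouse embryonic palatal mesenchyme (MEPM) cells were compared between serum-starved cells and cells given FGF1 with heparin for 1 h, by polyA RNA-seq. MEPM cells are cultured mesenchyme of the embryonic palatal shelves, which later form the hard and soft palate, and were taken here from E13.5 embryos. All groups were grown in medium with 10% fetal bovine serum and then held overnight in 0.1% serum. The starved group (4 libraries) received no ligand, the FGF1 group (3 libraries) received FGF1 at 50 ng/mL and heparin at 1 µg/mL for 1 h, and the PDGFA group (4 libraries) received that ligand at 30 ng/mL for 1 h. Only the FGF1 group was given heparin, so FGF1 and heparin cannot be told apart. Below, cells given FGF1 with heparin are called FGF1 cells, and where a gene has a pair of values the starved one comes first. The table gives, for a gene row, 1 FPKM per group (the number of fragments divided by transcript length and by the mapped total). Its deposited lower and upper bounds are printed here in square brackets. Values per library were not used here, depth is unknown, and no test between replicates stands behind any statement. Whether the libraries came from separate litters or cultures is not given in the labels. A row was called, and is said to have risen or fallen, when the intervals of the 2 groups lay wholly apart and neither FPKM was outside its own interval. Of the 23286 rows of the table, 11530 had at least 1 FPKM in starved or FGF1 cells and a usable estimate in both, and these were compared. Log2 folds are of FPKM + 0.5, a scale that understates changes at low levels, and a plain fold is given only where the starved value was at least 1 FPKM. Gene lists were chosen with earlier results of these data known. Counts of calls in them are descriptions, to be read beside the shares of all compared rows. Those shares were small, so that 0 calls in a list say little about its members.

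Fibroblast growth factors bind receptor tyrosine kinases together with heparan sulfate, the sulfated sugar chain that heparin resembles. The receptors signal through adaptors to RAS and the RAF-MEK-ERK kinase cascade, and ERK acts on transcription factors already present in the nucleus. The first genes to respond, the immediate early genes, need no new protein. Many of them encode transcription factors, and others encode inhibitors that shut the same pathway down. FGF signals pass between epithelium and mesenchyme as the palatal shelves grow, and PDGF receptor signalling is needed in the mesenchyme as well.

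FGF1 with heparin was followed mainly by rises. The intervals lay apart for 63 rows called higher (0.546% of those compared) and 2 called lower (0.0173%). The log2 fold of the 63 ranged from 0.61 to 4.36 with a median of 1.43, whereas the median over all compared rows was 0.02, with quartiles of -0.07 and 0.11. Of the 63 genes, 6 stood under 1 FPKM in starved cells, 28 between 1 and 10, 26 between 10 and 100, and 3 at 100 or more. Among those with at least 1 FPKM in starved cells, 51 rose at least 2-fold, 10 at least 4-fold and 3 at least 8-fold. The width of the intervals set what could be called: they reached a median of 25.5% of the FPKM to either side in starved and 34.7% in FGF1 cells, so that a row needed a median fold of 1.91 to be called higher and of 1.82 to be called lower. A z value made from the same intervals, with Benjamini-Hochberg adjustment, called 24 rows higher and 1 lower. A looser rule, under which each FPKM had only to lie outside the other group's interval, called 123 higher and 82 lower.

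**Figure D1:**
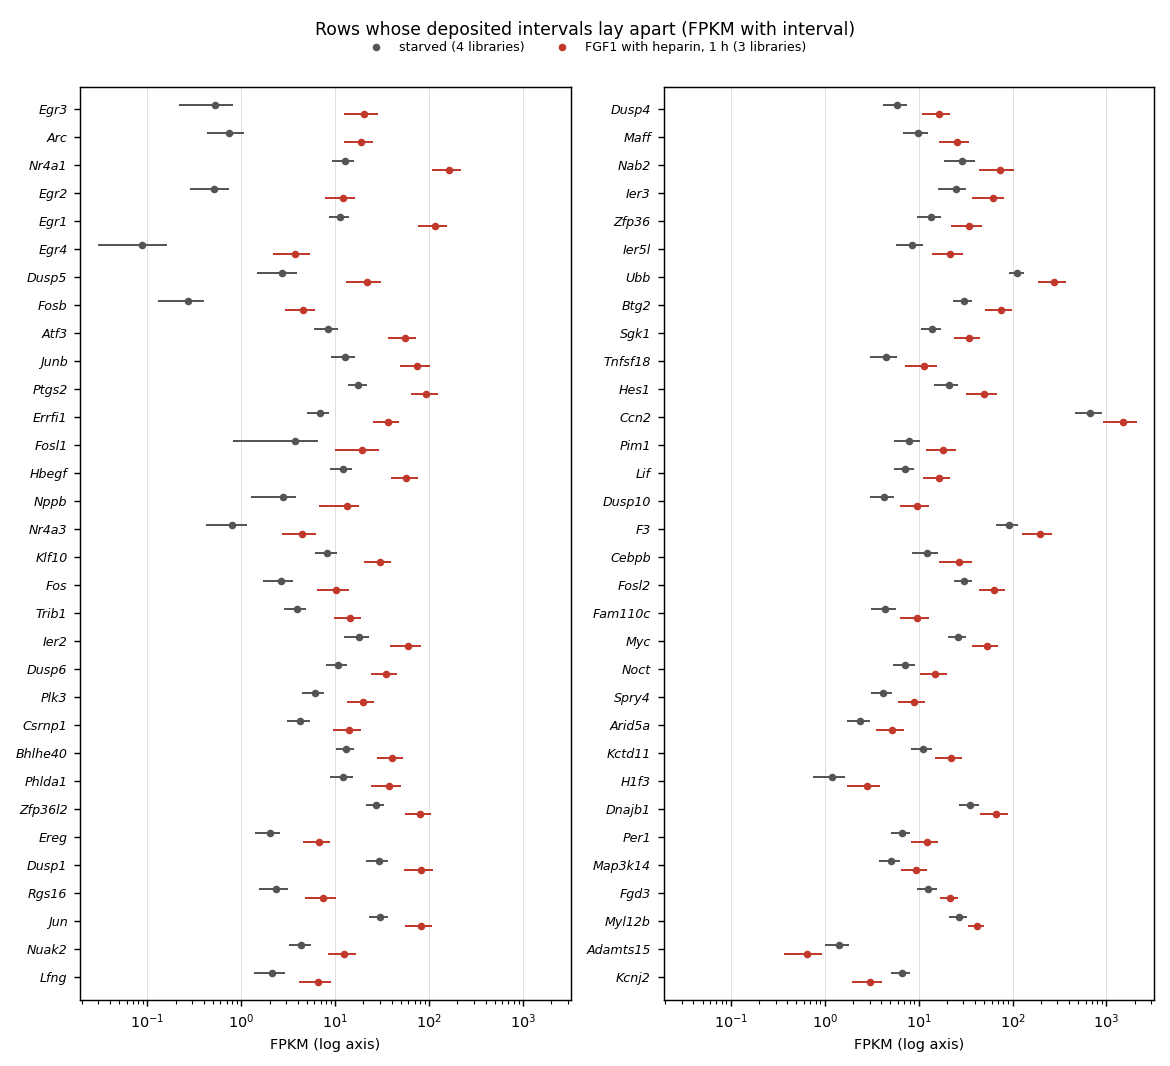
FPKM (log axis) of the rows called higher, all but 1 of the 63, and, at the end of the right-hand panel, the 2 called lower (Adamts15 and Kcnj2), in order of log2 fold. Points are the group values and bars the deposited intervals. Grey is starved (4 libraries) and red is FGF1 with heparin (3 libraries), and within each row the bars do not overlap.

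Genes for the reception of the signal were present and none was called. Of 22 FGF family genes in the table, not all of which need encode ligands of the receptors, 7 reached 1 FPKM. Fgf7, a mesenchymal ligand of the IIIb form of FGF receptor 2, had 31.7 FPKM [23.6, 39.9] in starved cells and 50.2 [30.6, 69.7] with FGF1. Those intervals overlapped. Fgf18 had the lowest log2 fold of the group, -0.28, with 15.3 and 12.5 FPKM in starved and FGF1 cells. Fgf10, the other main mesenchymal ligand of that receptor, had 2.56 and 2.99 FPKM. The remaining 4, Fgf2, Fgf13, Fgf16 and Fgf21, had log2 folds between -0.02 and 0.36, and the highest-expressed of them, Fgf13, had 22.98 and 22.6 FPKM. The endogenous Fgf1 transcript stood below 1 FPKM in both groups. Among the receptors, Fgfr1 had 43.1 FPKM [33.7, 52.4] in starved cells and 44.9 [30.6, 59.2] with FGF1, and Fgfr2 had 10.7 FPKM [8.34, 13.001] in starved cells and 11.5 [7.92, 15.1] with FGF1. For neither receptor did the values leave each other's intervals. The Fgfr3 and Fgfr4 rows stood below 1 FPKM in both groups, and the decoy-like receptor gene Fgfrl1 had 22.4 and 27.8 FPKM. Over 8 compared receptors and co-receptors the median log2 fold was 0.01, and it was -0.01 with median-of-ratios scaling and -0.03 with a trend on base composition, length and level removed.

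Heparan sulfate genes and the kinase cascade likewise gave no call. Of 27 compared heparan sulfate proteins and enzymes, 14 lay above and 13 below the starved value. Syndecan-4 (Sdc4), a cell-surface heparan sulfate proteoglycan, stood apart from the other members of its list, with 23.9 FPKM [18.01, 29.7] in starved cells and 40.02 [27.05, 52.96] with FGF1, though its intervals overlapped. The remaining 26 had log2 folds between -0.15 and 0.12. The glypican Gpc3 had 328 and 321 FPKM and the sulfatases Sulf1 had 174 and 175 FPKM and Sulf2 had 160.1 and 164 FPKM. Of 42 adaptors and kinases from Frs2 to ERK, 27 lay above and 15 below, with a median log2 fold of 0.05, or 0.01 with the trend removed. The range ran from -0.25 for Pik3r1, a regulatory subunit of PI3-kinase, to 0.38 for Hras, which had 51.97 and 67.95 FPKM. The ERK gene Mapk3 had 59.2 and 66.5 FPKM, and the receptor adaptor Frs2 had 14.9 and 13.6 FPKM.

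Several genes for inhibitors of receptor tyrosine kinase or MAP kinase signalling rose, 5 phosphatases and 2 receptor inhibitors among those listed. Of 10 compared dual-specificity phosphatase genes, which encode enzymes that remove the activating phosphates from MAP kinases, 5 were called higher and 0 lower, against 0.546% of all rows. The median log2 fold of the list was 0.76. Dusp5, a nuclear phosphatase specific for ERK, went from 2.69 FPKM [1.48, 3.89] to 22.1 [12.9, 30.9], an 8.205-fold rise. Dusp6, its cytoplasmic counterpart, rose 3.31-fold. Dusp1, which also acts on JNK and p38, went from 29.1 FPKM [21.3, 36.9] to 82.4 [53.95, 111], a 2.83-fold rise, and Dusp4 went from 5.85 FPKM [4.16, 7.55] to 16.3 [10.8, 21.8], a 2.78-fold rise. Dusp10, a phosphatase of JNK and p38, went from 4.27 FPKM [3.02, 5.505] to 9.56 [6.32, 12.8]. The other 5 members were not called. Dusp8, Dusp9, Dusp14 and Dusp16 had log2 folds between 0.16 and 0.44, with 5.16 and 7.17 FPKM for Dusp16. Dusp7, another cytoplasmic ERK phosphatase, was the only compared member below its starved value, with 15.5 and 12.999 FPKM.

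Among 17 compared receptor and RAS inhibitors, 2 were called higher. Errfi1, which binds and blocks EGF receptor family kinases, went from 6.84 FPKM [5.06, 8.61] to 36.4 [24.999, 47.8]. Spry4, a Sprouty protein that restrains signalling from receptor to RAS, rose 2.12-fold. Its relatives had intervals that overlapped: Spry2 had 11.7 FPKM [8.41, 14.9] in starved cells and 20.2 [13.2, 27.2] with FGF1, and Spry1 had 15.96 FPKM [11.9, 19.98] in starved cells and 22.7 [15.2, 30.1] with FGF1. The related Spred genes lay nearer to their starved values, with 15.7 and 15.4 FPKM for Spred1, 12.97 and 13.7 FPKM for Spred2 and 5.81 and 5.95 FPKM for Spred3. The cytokine signalling suppressors Socs1 had 5.64 and 7.902 FPKM and Socs3 had 2.85 and 4.096 FPKM. Il17rd, a transmembrane inhibitor of FGF receptor signalling also known as Sef, had the lowest log2 fold of the list, -0.33, with 6.64 and 5.18 FPKM. The median over these 17 genes was 0.08. Of 16 compared ETS factor genes, several of which are classical targets of FGF signalling, 0 were called, against 0.546% of all rows called higher. In the list 12 stood above and 4 below the starved value, with a median of 0.11. Ets1 had the highest fold of them, with 12.5 FPKM [9.77, 15.2] in starved cells and 18.1 [12.4, 23.8] with FGF1. Etv4 had 5.08 and 5.90 FPKM and Etv5 had 12.4 and 14.1 FPKM.

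**Figure D2:**
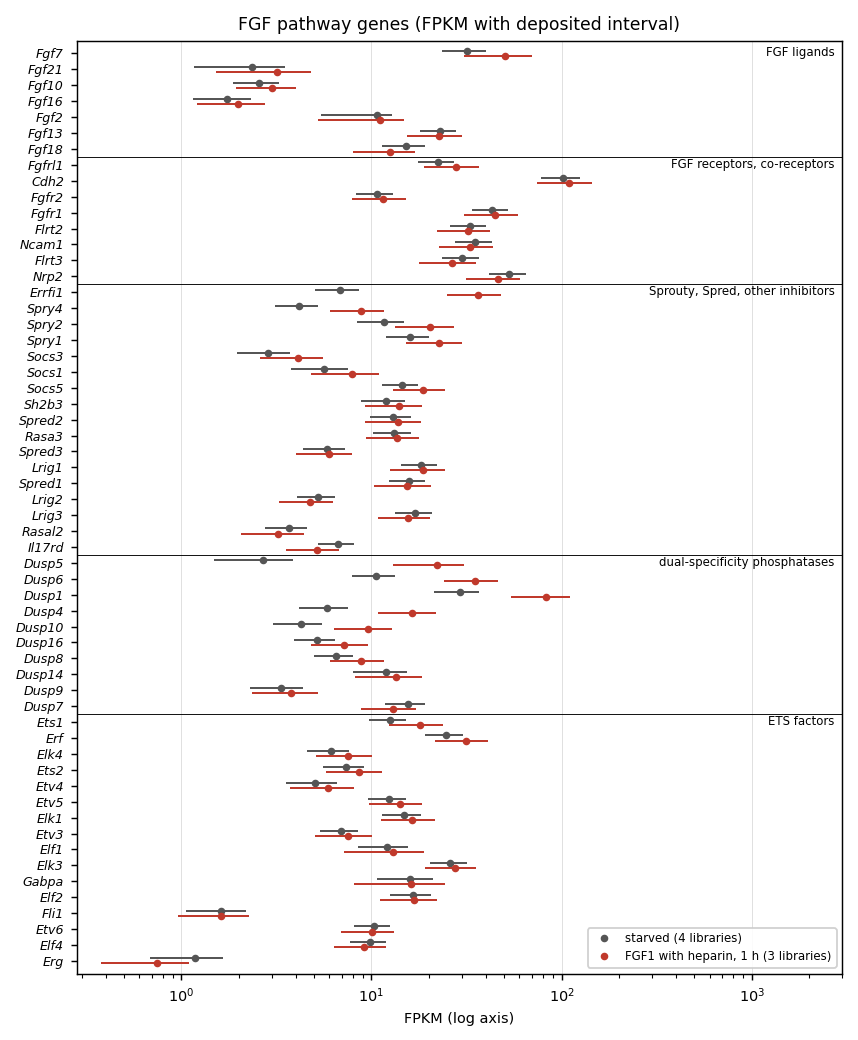
FPKM (log axis) of the compared FGF family genes (labelled FGF ligands), receptors and co-receptors, receptor inhibitors, dual-specificity phosphatases and ETS factors. Points are group values and bars deposited intervals, grey for starved and red for FGF1 with heparin. The bars lie apart for Errfi1, Spry4, Dusp5, Dusp6, Dusp1, Dusp4 and Dusp10.

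Immediate early transcription factors held most of the largest rises. All 4 EGR genes, which encode zinc-finger factors, were called, and so was Nab2, whose product binds EGR proteins and represses them. Nab2 went from 29.03 FPKM [18.4, 39.6] to 74.1 [43.6, 105], while its paralogue Nab1 had 16.6 and 18.05 FPKM. Egr2 lies at chr10:67537869-67542188 and went from under 1 FPKM, at 0.519 FPKM [0.283, 0.745], to 12.02 [7.86, 16.2]. Egr4 was the lowest-expressed of the called rows in starved cells, from 0.0878 FPKM [0.0181, 0.163] to 3.76 [2.16, 5.37], a log2 fold of 2.86. Of 15 compared AP-1 and MAF genes, 8 were called higher, against 0.546% of all rows, with a list median of 1.05. They cover both sides of the AP-1 dimer: Fos, Fosb, Fosl1 and Fosl2 of the FOS family, and Jun and Junb of the JUN family, together with Atf3 and the small MAF gene Maff. Jun went from 29.9 FPKM [23.1, 36.8] to 81.8 [55.7, 108], a 2.73-fold rise, and Fosl2 went from 30.5 FPKM [23.9, 37.02] to 63.6 [43.7, 83.5], a 2.09-fold rise. Maff rose 2.61-fold, whereas the other small MAF genes Mafk had 26.8 and 42.8 FPKM and Mafg had 24.8 and 29.1 FPKM with overlapping intervals. Jund, the third JUN gene, had 45.8 and 60.7 FPKM, and Atf2 had 14.9 and 15.05 FPKM.

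Of the nuclear receptor and Krüppel-like families, some members were called. Nr4a1 and Nr4a3, orphan nuclear receptors, were called, with log2 folds of 3.64 and 1.94. Nr4a3 went from 0.791 FPKM [0.425, 1.15] to 4.47 [2.71, 6.25]. The third family member, Nr4a2, had 4.57 FPKM [3.36, 5.78] in starved cells and 5.75 [3.73, 7.76] with FGF1, which overlapped. Of 13 compared KLF genes, only Klf10, a factor known as an early target of TGF-beta, was called, going from 8.27 FPKM [6.15, 10.4] to 30.1 [20.5, 39.7]. Another 10 stood above their starved values, and the list median was 0.49. Klf6 had 45.2 FPKM [35.2, 55.2] in starved cells and 75.02 [51.6, 98.4] with FGF1, and Klf4 had 70.5 FPKM [54.1, 86.7] in starved cells and 109 [74.3, 144] with FGF1, while Klf12 and Klf15 stood below.

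Of 44 other early regulators of transcription, 9 were called higher, against 0.546% of all rows. Ier2, of the immediate early response family, went from 18.02 FPKM [12.5, 22.7] to 60.1 [38.1, 81.6], and its relative Ier5l went from 8.48 FPKM [5.69, 11.2] to 21.8 [13.7, 29.8]. Csrnp1, a nuclear protein of the cysteine-serine-rich family, rose 3.304-fold. Myc, a driver of growth and cell cycle entry, went from 26.1 FPKM [20.5, 31.8] to 53.4 [36.99, 69.9], and Cebpb, a leucine zipper factor, went from 12.4 FPKM [8.41, 16.2] to 26.7 [16.5, 36.6]. Arid5a, whose product binds and stabilises certain mRNAs, went from 2.39 FPKM [1.74, 3.04] to 5.25 [3.498, 6.99]. The Cebpb call ended under quantile normalization and with the trend removed. Of 25 genes of the MYC network and cell cycle entry, Myc alone was called. The MYC antagonist Mnt had 9.54 and 14.4 FPKM, the cyclin gene Ccnd1 139 and 151 FPKM, and the median of those 25 was 0.01, or -0.01 with median-of-ratios scaling. Among 28 S phase and mitosis genes 0 were called, and their log2 folds ran from -0.34 for Mki67 to 0.18 for Ccnb1.

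Early genes are known targets of the serum response factor SRF, which binds the CArG box. They are also known targets of CREB, which binds the cyclic AMP response element (CRE). Matches to these and other motifs were counted in promoter sequence, and the part of these factors in the rises was not tested. RefSeq promoter windows of GRCm38.p6, the same build as mm10, from 250 bases before to 50 after a start site, were matched by symbol for 44 of the 63 called genes, giving 63 windows, since some genes have several starts. The other called genes, Arc, Ier2, Ccn2 and Myc among them, had no window and were not searched. Searched on both strands, a CArG box stood in 6 windows, which belong to Dusp5, Egr2 and Zfp36. Egr2, with 5 starts, gave 4 of the 6. That is 9.52% of the windows, against 1.63% of all 32851 windows and 1.302% of those of compared genes. Counted by gene it is 3 of 44 (6.82%), against 1.81% of all genes with a window and 1.58% of compared genes. The full CRE, TGACGTCA, stood in 4 windows, of Btg2, Dusp1, Errfi1 and Maff, or 6.35%, against 1.79% and 3.10%, and by gene 9.09%, against 2.03% and 3.74%. The shorter TGACG, which the full CRE contains, stood in 47.6% of windows, against 20.8% and 31.7%. The other motifs were the AP-1 site TGAGTCA (4.76%, against 5.20% and 3.51%), the EGR site GCGTGGGCG (1.59%, against 0.612% and 1.18%), the ETS site CCGGAAG (6.35%, against 8.86% and 17.9%), TATAAA (15.9%, against 13.6% and 6.79%) and the GC box GGGCGG (63.5%, against 35.7% and 64.6%). A match is a description of letters and not a measured binding site, and windows of 1 gene can overlap.

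The 250 bases before the start site of 5 called genes are printed 5′ to 3′ on the gene's strand, because they hold the CArG boxes or full CREs counted above. Capitals mark the CArG boxes in the first 3 and the CRE in the last 2. The windows are chr19:53528895-53529144 (plus strand) for Dusp5, chr10:67537316-67537565 (plus) for Egr2, chr7:28379229-28379478 (minus) for Zfp36, chr17:26508473-26508722 (minus) for Dusp1 and chr1:134079156-134079405 (minus) for Btg2.
Dusp5: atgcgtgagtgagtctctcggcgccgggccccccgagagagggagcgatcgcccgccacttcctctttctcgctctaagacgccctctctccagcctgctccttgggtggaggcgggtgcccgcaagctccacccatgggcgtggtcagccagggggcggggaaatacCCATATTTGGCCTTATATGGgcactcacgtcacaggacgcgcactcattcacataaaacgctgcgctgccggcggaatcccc
Egr2: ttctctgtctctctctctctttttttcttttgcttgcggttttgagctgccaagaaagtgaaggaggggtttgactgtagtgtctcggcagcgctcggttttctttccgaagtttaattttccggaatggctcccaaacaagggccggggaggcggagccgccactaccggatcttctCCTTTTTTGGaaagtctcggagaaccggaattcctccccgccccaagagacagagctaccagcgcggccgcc
Zfp36: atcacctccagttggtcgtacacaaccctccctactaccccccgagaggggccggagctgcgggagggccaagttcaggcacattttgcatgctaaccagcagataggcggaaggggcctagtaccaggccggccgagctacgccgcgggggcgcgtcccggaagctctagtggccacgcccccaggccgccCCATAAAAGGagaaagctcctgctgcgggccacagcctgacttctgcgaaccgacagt
Dusp1: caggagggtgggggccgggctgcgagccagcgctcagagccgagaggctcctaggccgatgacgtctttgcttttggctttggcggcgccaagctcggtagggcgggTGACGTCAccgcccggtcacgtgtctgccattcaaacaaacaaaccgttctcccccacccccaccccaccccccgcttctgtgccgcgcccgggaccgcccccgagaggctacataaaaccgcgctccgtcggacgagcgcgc
Btg2: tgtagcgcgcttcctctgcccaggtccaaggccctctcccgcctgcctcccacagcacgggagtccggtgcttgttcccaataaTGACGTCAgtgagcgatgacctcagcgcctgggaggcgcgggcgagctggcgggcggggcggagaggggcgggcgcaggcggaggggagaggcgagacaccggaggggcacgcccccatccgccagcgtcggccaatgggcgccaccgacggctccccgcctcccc
Dusp5 carried a pair of boxes side by side, whose first bases lay 82 and 72 bases before the start. The Egr2 box began 72 bases before the start used for the printed window, 1 of the 5 starts of that gene. The Zfp36 box began 58 bases before its start. The CRE began 143 bases before the start in Dusp1 and 166 in Btg2. The folds of these 5 genes spanned much of the called range: the log2 folds were 3.62 for Egr2, 2.82 for Dusp5, 1.49 for Dusp1, 1.32 for Zfp36 and 1.29 for Btg2.

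Genes of secreted and surface proteins with high starved levels were also called. The tissue factor gene F3, which starts blood clotting, went from 91.7 FPKM [67.4, 115] to 194 [126, 262]. The plasminogen activator Plau and its receptor Plaur had 39.3 and 67.6 FPKM and 21.9 and 37.5 FPKM, with overlapping intervals. Ccn2, a matricellular protein also called connective tissue growth factor, was the most abundant called gene and went from 673 FPKM [459, 888] to 1509 [917, 2101]. Its call ended under quantile normalization and with the trend removed. Its relative Ccn1 had 326 FPKM [235, 414] in starved cells and 649 [409, 884] with FGF1, intervals that overlapped slightly. Of 28 compared YAP-TEAD targets 3 were called, Ccn2, F3 and the kinase gene Nuak2, with a list median of 0.07, or 0.01 with the trend removed, and the target Ankrd1 had 21.8 and 42.1 FPKM.

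Among ligands, Hbegf and Ereg, which activate the EGF receptor, were the called members of 7 compared genes of that family, with rises of 4.78-fold and 3.34-fold. The receptor gene Egfr had 24.9 and 23.2 FPKM, the ligand Tgfa 1.205 and 1.21 FPKM and the ligand Nrg1 12.02 and 12.9 FPKM. Lif was the called member of 16 cytokines and chemokines, going from 7.21 FPKM [5.49, 8.94] to 16.4 [11.2, 21.5]. The chemokine Ccl2 had 19.7 and 30.1 FPKM and Ccl20 had 2.99 and 4.75 FPKM. Of 27 other secreted factors only Nppb was called, and 20 stood above the starved value. Bdnf had 19.3 and 28.97 FPKM, the endothelin gene Edn1 4.31 and 6.58 FPKM and Vegfa 31.2 and 40.7 FPKM, while Hgf had 1.45 and 0.992 FPKM. Tnfsf18, the ligand of the receptor GITR and a member of no list, went from 4.46 FPKM [3.01, 5.905] to 11.5 [7.23, 15.7], a 2.57-fold rise.

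Enzymes and RNA-binding proteins made up a further group. Over all compared rows, 0.546% were called higher and 56.3% stood above their starved values. Of 44 early enzyme and structural genes, 14 were called and 42 stood above their starved values, with a median log2 fold of 0.62. Kinases among them were Plk3, a polo-like kinase that went from 6.08 FPKM [4.48, 7.68] to 19.7 [13.3, 26.1], Sgk1, a serum- and glucocorticoid-induced kinase that went from 13.99 FPKM [10.7, 17.3] to 34.5 [23.6, 45.4], Pim1, which went from 7.96 FPKM [5.45, 10.4] to 18.4 [11.8, 24.9], and Nuak2, which rose 2.89-fold. Rgs16, which ends signalling by G proteins, rose 3.16-fold. Phlda1 went from 12.3 FPKM [8.78, 15.6] to 36.97 [24.1, 49.8], and Ier3 went from 24.7 FPKM [15.9, 31.8] to 62.3 [37.2, 81.7]. Arc, a gene best known from active neurons, rose from under 1 FPKM to 18.7 [12.5, 24.99]. Of 22 genes of mRNA decay and translation control, 3 were called, with a median of 0.11. Zfp36 and Zfp36l2 encode proteins that bind AU-rich sequences in mRNA and promote its decay. Zfp36 went from 13.6 FPKM [9.602, 17.4] to 34.6 [22.4, 46.8], a 2.55-fold rise, and Zfp36l2 rose 2.92-fold, while the third relative Zfp36l1 had 26.8 and 38.9 FPKM. Noct, or nocturnin, which stands in none of the lists, went from 7.25 FPKM [5.398, 9.08] to 15.1 [10.3, 19.8]. The deadenylase subunits Cnot1 had 23.4 and 20.7 FPKM and Cnot6l had 10.2 and 9.08 FPKM.

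The remaining called genes have varied roles. Map3k14, the kinase NIK of the noncanonical NF-kB pathway, went from 5.06 FPKM [3.81, 6.31] to 9.402 [6.43, 12.4], and 0 of 14 compared NF-kB genes were called. Kctd11, an adaptor of a ubiquitin ligase that restrains Hedgehog signalling, rose 1.99-fold. The co-chaperone gene Dnajb1 went from 35.5 FPKM [26.6, 44.3] to 67.3 [45.2, 89.2] and was the called member of 24 stress-response genes. Like that of Cebpb, its call ended under quantile normalization and with the trend removed. Hspa1b, a heat shock gene, had 10.3 and 14.8 FPKM. The linker histone gene H1f3 went from 1.21 FPKM [0.755, 1.65] to 2.79 [1.73, 3.85]. Fgd3, an exchange factor for the small GTPase CDC42, rose 1.69-fold and Fam110c rose 2.19-fold. Myl12b, a regulatory light chain of non-muscle myosin, had the smallest fold of the called rows, 1.54-fold, and its call ended with median-of-ratios scaling, quantile normalization and the trend removed. Ubb, a polyubiquitin gene, had 112 FPKM [92.6, 132] in starved cells and 279 [187, 371] with FGF1. Because 66.7% of its 31-base words occur at another locus, the Ubb value is uncertain.

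Only 2 rows fell. Kcnj2, an inward-rectifier potassium channel gene at chr11:111066164-111076825, fell with a 2.204-fold difference, from 6.61 FPKM [5.103, 8.12] in starved to 2.9996 [1.96, 4.03] in FGF1 cells. The other 10 compared potassium channel genes had log2 folds from -0.23 to 0.17. Adamts15, a protease of the matrix proteoglycan versican, at chr9:30899155-30922452, stood low in both groups, at 1.41 FPKM [0.996, 1.83] in starved cells and 0.648 [0.366, 0.925] with FGF1, and its call ended with a minimum of 5 FPKM, with the z value and with a log2 fold of at least 1 in size asked for on the FPKM + 0.5 scale. Of 24 compared hyaluronan, protease and inhibitor genes 8 stood below the starved value, while the related proteases Adamts4 and Adamts9 had 10.2 and 9.19 FPKM and 9.43 and 8.54 FPKM, respectively. Next nearest to a call on the lower side were Igfbp5, an IGF-binding protein with 35.3 FPKM [27.7, 42.8] in starved cells and 22.3 [15.5, 29.1] with FGF1, the endothelin receptor gene Ednra with 4.05 and 2.43 FPKM, Kif26b with 6.56 and 4.36 FPKM, Pdgfra with 3.87 FPKM [2.95, 4.79] in starved cells and 2.46 [1.58, 3.34] with FGF1, and Zfp41 with 3.26 and 1.94 FPKM. Among rows with at least 5 FPKM in either group, 57 had a log2 fold of 1 or more and 51 of them were called, whereas 16 had -1 or less and 1 of them was called.

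**Figure D3:**
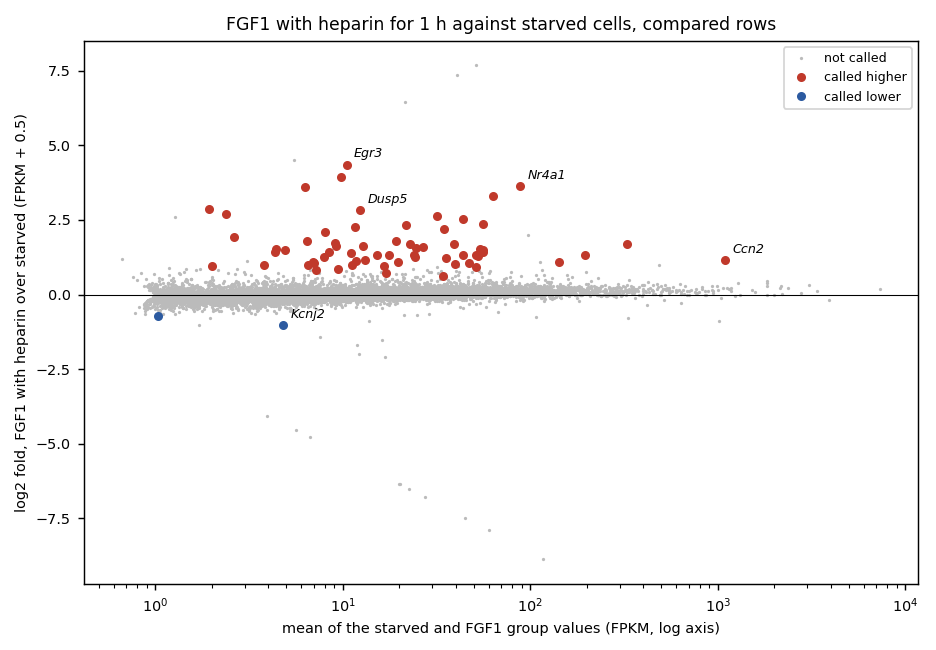
Log2 fold of FGF1 with heparin over starved (FPKM + 0.5) against the mean of both group values (FPKM, log axis) for the 11530 compared rows. Red rows were called higher (63), blue rows lower (2). Grey points far from 0 are rows that were not called: 17 have a log2 fold of 2 or more in size, and 15 of these have transcripts under 200 nt.

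Several lists lay to one side of their starved values with 0 calls, or with 1 in the case of the reference genes. All 24 cholesterol synthesis genes stood above it, with a median log2 fold of 0.24, or 0.14 with the trend removed. The median over all rows was 0.02, and 56.3% of them stood above. Reference genes lay to the same side, with 14 of 15 compared above and a median of 0.15, or 0.07 with the trend removed. Insig1, which holds back sterol-sensing activators of the pathway, had 92.6 and 145 FPKM, and Stard4, a cholesterol transport protein, had 24.7 and 34.7 FPKM. Of 34 SRF-MRTF contractile and adhesion genes, 32 stood above, with a median of 0.20, or 0.08 with the trend removed. Zyx, an adhesion protein, had 361 and 485 FPKM and Csrp1 had 351 and 437 FPKM, while Srf itself, the gene of the factor, had 28.2 FPKM [22.1, 34.3] in starved cells and 42.6 [29.2, 55.8] with FGF1. Cnn1, Acta2, Tagln and Myh11 of this list also stand among the smooth muscle and pericyte markers, whose summed level was 4704 and 5773 FPKM, and their part in the result was not tested. On the other side, 19 of 26 compared collagen and matrix genes stood below, with a median of -0.06, or -0.17 with the trend removed. Elastin (Eln) had 65.9 and 49.5 FPKM, the collagen gene Col6a3 31.3 and 25.2 FPKM and periostin (Postn) 697 and 578 FPKM. The Col1a1 and Thbs1 rows had failed estimates and were left out. Of 25 compared Wnt genes 18 stood below, and Sfrp2 had 81.5 and 65.9 FPKM and the receptor Fzd8 11.5 and 9.02 FPKM. Of 27 genes known to be repressed by growth factors, 12 stood above and 15 below, with Foxo1 at 3.86 and 2.92 FPKM, Arrdc3 at 7.66 and 5.701 FPKM and, the other way, Cited2 at 83.8 and 131 FPKM. The lists share some members. Apart from that of Ubb, the called reference gene, each of these differences lies within overlapping intervals.

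**Figure D4:**
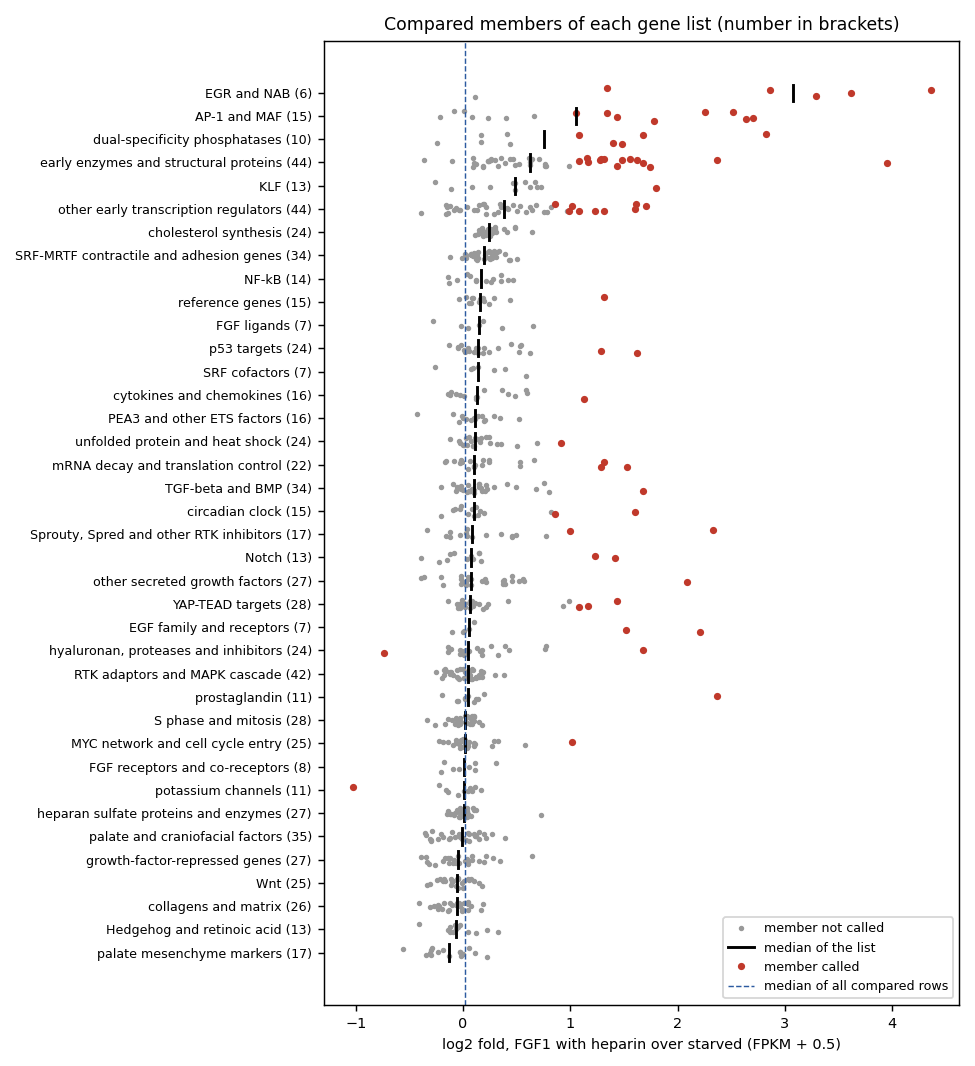
Log2 folds of the compared members of each gene list with at least 5 compared members (number in brackets). Black bars are list medians and the dashed line is the median of all compared rows, 0.02. Called members are red. The EGR and NAB list has a median of 3.08, AP-1 and MAF 1.05 and the phosphatases 0.76, and the palate mesenchyme markers lie at the bottom with -0.13.

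Transcription factors and markers of the palate had 0 calls. Over all compared rows, 0.546% were called higher and 0.0173% lower, and 56.3% stood above their starved values. Of 35 compared palate and craniofacial factors, 14 stood above and 21 below, with a median of -0.01, or -0.05 with the trend removed. Dlx2 had 8.29 and 11.04 FPKM and Mn1 16.996 and 13.2 FPKM. The palate mesenchyme markers, several of which are the same genes, stood below in 14 of 17 compared members, with a median of -0.13, or -0.20 with the trend removed. Osr1 had 52.1 and 41.9 FPKM, Osr2 3.73 and 2.94 FPKM, Msx1 59.8 and 48.7 FPKM, Alx1 7.87 and 6.28 FPKM and Meox2 1.43 and 1.02 FPKM. Prrx1 and Twist1, broad mesenchyme factors, had 233 and 228 FPKM and 60.1 and 62.4 FPKM, and the PDGF receptor gene Pdgfrb had 71.1 and 70.9 FPKM. In bulk RNA, fewer cells of a type and less RNA per cell cannot be told apart.

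Markers of palate mesenchyme were present in both groups: 17 of 20 were compared, and Vim had 1982 and 2315 FPKM. Tbx22 stood below 1 FPKM. Of 10 epithelial markers 1 was compared (Krt18, 2.997 and 4.08 FPKM), with summed levels of 3.56 FPKM in starved and 4.75 with FGF1. Of 8 endothelial markers 2 were compared and the sums were 3.87 and 4.10, with Tie1 and Cldn5 listed at 0. Macrophage and blood markers summed to 2.18 and 2.01 over 7 rows, with Hba-a1 listed at 0. Skeletal muscle markers summed to 23.8 and 30.7 over 11 rows, most of it Acta1. Smooth muscle and pericyte markers were high and summed to 4704 and 5773 over 9 rows. Neural and Schwann markers summed to 39.5 and 47.0, of which Tubb3 gave 36.99 and 44.8 FPKM, and the cartilage and bone markers summed to 100.01 and 105. The part these markers have in the results was not tested. Of the reference genes, Hprt had 61.3 and 68.1 FPKM, Tbp 9.89 and 9.59 FPKM and Actb 1552 and 2107 FPKM. The Gapdh and Ppia rows stood below 1 FPKM and share 84.1% and 57.4% of their 31-base words with other loci. The Y-linked genes Ddx3y, Eif2s3y, Kdm5d and Uty had log2 folds between -0.03 and 0.28, and Xist had -0.27.

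The called genes had compact loci, a feature the rule did not use. The locus as deposited, which for some rows takes in an overlapping gene, spanned a median of 7350 bases in the 63 rows and 25768 in the 11458 compared rows with transcript features. It was under 10 kb in 37 of 63 (58.7%) against 23% of all compared rows. It reached 50 kb in 2 of 63 (Bhlhe40 and Sgk1, 3.17%) against 30.7%. Put the other way, 1.4% of compared rows under 10 kb were called higher, 0.449% of those between 10 and 50 kb and 0.0566% of those of 50 kb or more. The called genes had a median of 4 exons against 9. A single exon was found in 7 of 63 (Junb, Ier2, Jun, Ier5l, Cebpb, Kctd11 and H1f3, 11.1%) against 2.94%, and 5 exons or fewer in 76.2% against 29.1%. Mature transcripts differed less, with a median length of 2792 against 3055 nt, and GC content was 53.8% against 50.2%. Among rows of at least 200 nt, the fold needed to be called higher had a median of 2.032 under 10 kb. It was 1.9 from 10 to 50 kb and 1.852 at 50 kb or more, and its part in these shares was not tested. Among uncalled rows of at least 200 nt the median log2 fold was 0.06 under 10 kb, 0.02 from 10 to 50 kb and -0.0049 at 50 kb or more, and 63.4%, 57.5% and 48.2% of them stood above the starved value.

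The 3′ untranslated regions of the called genes often held an AU-rich motif. The motif TATTTAT, the core of AU-rich elements that mark mRNAs for rapid decay, was found at least once after the stop codon in 38 of 63 called genes (60.3%) against 30.2% of 11156 compared rows. It was found 3 or more times in 14 (22.2%) against 3.87%. These 14 were Ptgs2, Nppb, Plk3, Zfp36l2, Ereg, Dusp1, Rgs16, Ier3, Zfp36, Pim1, Lif, Fosl2, Spry4 and H1f3. Transcript features are those of the longest matched GENCODE transcript, which can reach beyond the deposited locus. That of H1f3 has 7425 nt, against a locus of 2977 bases. Among rows whose 3′ region was between 764 and 1669 nt long, the quartiles of the called genes, the shares were 61.3% (19 of 31) and 28.1% (847 of 3016). In uncalled rows the median log2 folds were 0.02, 0.02 and 0.01 for rows with 0 motifs, with 1 or 2, and with 3 or more. Neighbouring called genes were few. Ier2 and Junb lie 314 kb apart on chromosome 8, and Per1 and Kctd11 lie 768 kb apart on chromosome 11.

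**Figure D5:**
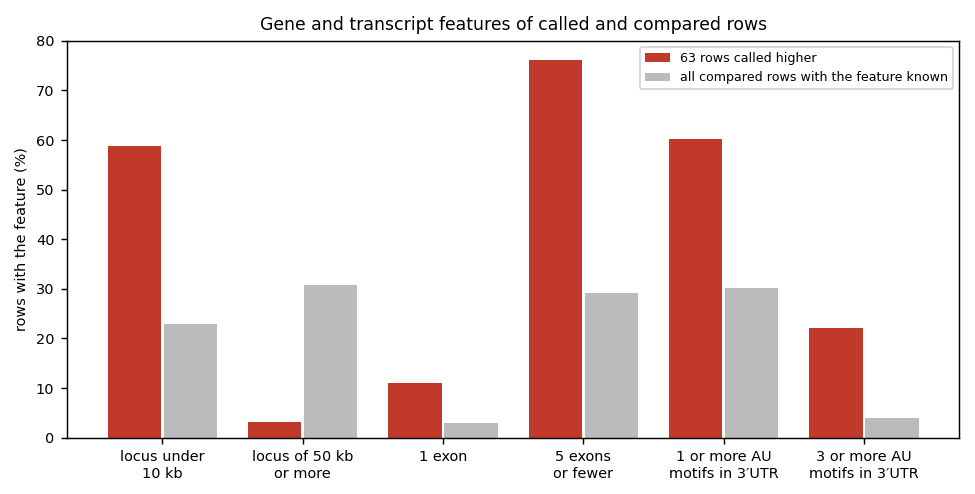
Share of rows (%) with each gene or transcript feature, for the 63 rows called higher (red) and for all compared rows with the feature known (grey). AU motifs are matches to the 7-base motif named in the text. Under 10 kb the shares are 58.7% and 23%, and with 5 exons or fewer 76.2% and 29.1%.

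The rows nearest to the rule were, just inside, Myl12b, Map3k14, Dnajb1, Cebpb and Per1, and just outside, Smad7, Ccn1, Ankrd1, Tcim and Ier5. Smad7, an inhibitor of TGF-beta signalling, had 7.45 FPKM [5.71, 9.18] in starved cells and 13.3 [9.18, 17.5] with FGF1, so that the bounds met exactly. Ier5 had 24.3 and 42.3 FPKM and Tcim 1.74 and 4.39 FPKM. Among all uncalled rows with at least 5 FPKM the highest folds were those of Snora44, Gm12238, Mir719, Snora34, Ccn1, Sertad1, Ankrd1, Snora52, Mir702 and Nfil3, and the lowest those of Snora41, Mir423, Snora15, Mir215, Snora75, Snora69, Mir1192, Snora62, Dancr and Snora21. Most of these are rows of small RNAs. The rows listed as Mir719 and Mir702 also hold a protein-coding transcript (of Nupl1 and Plod3), so their values are not those of the microRNAs. Restricted to transcripts of at least 200 nt with little shared sequence, a restriction made after the values were seen, the list gained Otud1 (4.69 and 8.63 FPKM), Smad7, Ier5 and Epha2, an ephrin receptor gene (44.4 and 76.9 FPKM), on the higher side. On the lower side it gained Igfbp5, Gdf10, a BMP-family gene (5.42 and 3.36 FPKM), Igfbp3 (80.9 and 54.1 FPKM), Iqcc, Zfp60, Kif26b, Ppp1r3b, Ahdc1 and Sall2 (6.27 and 4.34 FPKM).

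PDGFA, the other ligand, was compared at its own dose and with the same starved cells as control, so values are only set side by side. Of the 63 genes, 46 had a higher FPKM with FGF1 than with PDGFA and 17 a lower one, though they had been chosen by their FGF1 values. Their median log2 fold over starved was 1.43 with FGF1 and 1.07 with PDGFA. The PDGFA intervals of these genes were wider, reaching a median of 50.9% of the FPKM to either side against 33.7%. Set directly against PDGFA, 3 of 11604 rows were called higher with FGF1 (0.0259%), namely Egr1, Lfng and Per1, and the call of Per1 ended with median-of-ratios scaling. Lfng had 6.55 FPKM [4.17, 8.92] with FGF1 and 2.65 [1.93, 3.37] with PDGFA. Per1 had 12.3 FPKM [8.34, 16.3] with FGF1 and 6.95 [5.56, 8.33] with PDGFA. The PDGFA intervals of Lfng and Per1 were narrower than the median of 50.9% to either side. The part of that width in their calls was not tested. A further 11 rows were lower with FGF1 than with PDGFA (0.0948%), and none of them is among the 63. In 6 of the 11, FGF1 and starved cells were both listed at 0, with FGF1 bounds of 0. The others include the cardiac actin gene Actc1, at 1.49 FPKM [0.712, 2.25] with FGF1 and 10.96 [4.0003, 17.9] with PDGFA. Its starved value was 1.46 FPKM, so the FGF1 value was not below that of starved cells. For the genes that follow, the FGF1 and PDGFA intervals overlapped. Zfp36l2 had 80.1 [55.2, 105] FPKM with FGF1 and 39.8 [21.4, 58.1] with PDGFA, and Dusp6 35.01 [23.95, 46.1] and 21.5 [10.9, 31.998]. Trib1 had 14.2 [9.82, 18.6] and 8.74 [4.44, 13.01], and Spry4 8.83 [6.06, 11.6] and 5.84 [3.05, 8.64]. On the other side, Egr4 had 3.76 [2.16, 5.37] and 11.2 [3.65, 18.8], and Rgs16 7.48 [4.75, 10.2] and 12.5 [5.33, 19.7]. Likewise Cebpb had 26.7 [16.5, 36.6] and 41.8 [17.2, 66.3], Nr4a3 4.47 [2.71, 6.25] and 7.12 [2.63, 11.6], and Myl12b 41.6 [33.3, 49.9] and 61.3 [29.4, 92.4]. Fgf7 had 50.2 [30.6, 69.7] and 33.7 [13.2, 54.1], and Sdc4 40.02 [27.05, 52.96] and 33.2 [18.1, 48.3].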

How the data were processed

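PolyA RNA of 11 libraries in 3 groups was sequenced. The submitters' processing notes name the build mm10 and the programs CASAVA, Cuffdiff and TopHat. What each did, its version and the annotation used were not given in the sources used here. In the deposited table the authors give 1 FPKM per group and row and, per the file headers, its confidence bounds, of unstated level. The level was taken as 95% where a z value was needed. FPKM is relative to the library total, and so moves when other genes change. Depth is unknown.

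The planned tests need values per library, so limma, the replicate block and leave-one-out fits were not run, and the interval rule stood in. The rule was also run on simulated data, but that outcome is not given here. No error rate of the rule is drawn from it, and its error rate on these data is unknown. The genes and lists were chosen with earlier results of these data known. Rows needed 1 FPKM in either group, and the pseudocount was 0.5. In the table, 11756 rows fell under the minimum or had no usable estimate, 2 of them with failed estimates, and 138 compared rows had a value outside its own interval. RefSeq accessions were named from the GRCm38.p6 gene table for 22988 rows and from GENCODE M21 for 130, and 168 had no name. Positions are 1-based. Lengths, exons, GC content, 3′ regions and shared 31-base words came from GENCODE M21 and covered 99.4% of compared rows. Rows sharing 20% or more are called uncertain.

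Genes were named by rule: every called row, up to 4 further members of each list by size of the log2 fold, all compared FGF family genes and receptors, Pdgfra and Pdgfrb, the 10 largest rises and falls among uncalled rows of 5 FPKM or more, the 5 rows nearest the rule on each side, and Actb, Gapdh, Hprt, Tbp and Ppia. Other genes were named after their values were seen, and some that the rule names are not reported here. Python 3.11.15 was used, with matplotlib 3.10.9, scipy 1.17.1, pandas 2.3.3, statsmodels 0.14.6 and numpy 2.4.6.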

Additional observations from a re-analysis of the deposited data

How the results depend on the processing

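No paired analysis was possible because the table holds 1 value per group, and leaving out libraries was not possible for the same reason. The 63 rows higher and 2 lower became 123 and 82 when an FPKM had only to lie outside the other interval, and 24 and 1 with a z value and Benjamini-Hochberg adjustment; all of the 24 were among the 63. The rows lower numbered 1 with a minimum of 5 FPKM and 1 with a log2 fold of at least 1 in size on the FPKM + 0.5 scale, Kcnj2 in each case. The rows higher numbered 54 with that log2 fold and 59 with that minimum, and between 60 and 65 with the other alternatives (no minimum, median-of-ratios scaling, quantile normalization, the trend removed, short and shared rows left out, own interval not required). The median-of-ratios shift was -0.02 in log2. The rows higher with FGF1 than with PDGFA numbered 2 with that scaling, Egr1 and Lfng, in place of 3, and the rows lower 11 with or without it. No called row changed sign under another pseudocount, scaling or trend. The EGR and NAB median was 3.82 with a pseudocount of 0.1. List medians near 0 changed sign for FGF receptors, heparan sulfate genes, potassium channels, MYC network, S phase and cartilage and bone markers. With promoters of compared genes as reference, motif shares were 1.302% (CArG box), 3.10% (CRE), 31.7% (TGACG), 3.51% (AP-1), 1.18% (EGR), 17.9% (ETS), 6.79% (TATA) and 64.6% (GC box). The width of the deposited intervals limits what could be called, and the depth behind it is unknown.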

Other observations

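Lists not described above gave 0 to 2 calls each. Of 24 compared p53 targets, Plk3 and Btg2 were called. Above their starved values stood 20 of the 24. Their median log2 fold was 0.14, or 0.05 with the trend removed, against 0.02 over all rows. Mdm2, whose product degrades p53, had 107 FPKM [81.4, 132] in starved cells and 156 [105, 206] with FGF1. Cdkn1a, a cell cycle inhibitor, had 461 and 579 FPKM, the starved value first. Of 34 compared TGF-beta and BMP genes, 26 stood above, with a median of 0.10. The co-repressor gene Skil had 14.6 and 23.8 FPKM, and Tgif1 had 36.2 and 61.5 FPKM, with overlapping intervals.

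Of 13 compared Notch genes, Hes1 and Lfng were called, and the receptor genes Notch1, Notch2 and Notch3 had log2 folds of 0.15, -0.13 and -0.08. The related targets Hey1 and Heyl stood below their starved values, with log2 folds of -0.15 and -0.39. Of 15 compared clock genes, Bhlhe40 and Per1 were called, and Nfil3 had 20.3 FPKM [14.7, 25.6] in starved cells and 36.1 [23.9, 48.1] with FGF1. Of 11 prostaglandin genes Ptgs2 alone was called, while Ptgs1, the constitutive form of the enzyme, had 7.06 and 6.77 FPKM. Of 13 compared Hedgehog and retinoic acid genes 0 were called and 9 stood below, with Rarb, a retinoic acid receptor gene, at 3.49 and 2.51 FPKM and the retinoic acid binding protein gene Crabp1 at 399 and 501 FPKM. Of 15 compared reference genes 14 stood above, Ubb being the one called, with a median of 0.15, or 0.07 with the trend removed.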
